A study of Mus musculus with 15 samples.

Results

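miR-221-3p and miR-222-3p are the guide arms of the cluster of miR-221 and miR-222, that is, the strands of the 2 hairpins Mir221 and Mir222 that are loaded into Argonaute. They were chosen by name, and their reads were the inserts of 18 to 26 bases whose first 18 bases matched the arm exactly. They are 2 of the 729 miRNA arms with at least 1 read. The small RNA libraries number 15, all from mouse, with 3 in each of 5 groups. The MM3MG line is labelled as a normal mammary epithelial line of the BALB/c strain. MM3MG-Her2 is MM3MG transduced with retroviral particles of pLSXN-Neu, and whether it is 1 clone is not given in the labels. TUBO cells are a breast cancer line from primary tumours of the Balb-NeuT mouse, a strain with an activated rat Neu transgene in the mammary gland. TUBO exosomes were extracted from the supernatant of TUBO cultures, and TUBO supernatant is what remained after exosome isolation. All cells grew in DMEM with fetal calf serum and had no further treatment. The stated aim of the series was a search for miRNAs that act on the progesterone receptor, in lines with Her2 and in what they release.

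A guide miRNA pairs through its seed, bases 2 to 8 from the 5′ end, with sites in messenger RNAs and lowers their translation and stability. These guides are known to repress Cdkn1b, the cell cycle inhibitor p27, together with Cdkn1c, Kit and the oestrogen receptor gene Esr1. In breast cancer they are known as miRNAs of basal-like rather than luminal cells and as promoters of the epithelial to mesenchymal transition.

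The RefSeq sequences of both guides are shown to make plain that they share a seed, in capitals, and differ after it.
miR-221-3p: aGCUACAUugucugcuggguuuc
miR-222-3p: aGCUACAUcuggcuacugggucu
The first 8 bases were identical, and 9 of the first 18 bases differed, so no read could be counted for both. Of 1679 RefSeq mouse mature arm names, 3 had this seed, and the other was miR-1928, whose RefSeq arm is shorter than the 18 bases matched and was not counted. On GRCm38.p6 both guides lie on the minus strand of chromosome X, miR-221-3p at chrX:19146307-19146329 and miR-222-3p at chrX:19146901-19146923. Their hairpins, at chrX:19146294-19146388 and chrX:19146893-19146971, are 504 bases apart, and GENCODE M21 on GRCm38 has no other gene overlapping either. Within 50000 bases of the cluster its only other gene was Gm14636, a noncoding transcript on the same strand, 10009 bases from Mir222. The RefSeq hairpins are given with the RefSeq mature arms in capitals, which are both arms of Mir221 and the 3p arm of Mir222.
Mir221: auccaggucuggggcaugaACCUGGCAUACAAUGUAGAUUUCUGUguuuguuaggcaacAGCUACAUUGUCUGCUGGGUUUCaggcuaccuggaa
Mir222: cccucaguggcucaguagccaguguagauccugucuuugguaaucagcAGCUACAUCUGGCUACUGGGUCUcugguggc

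Total reads per library ranged from 196152 to 710902 and miRNA reads from 56668 to 521152, both lowest in supernatant and highest in TUBO cells. The share of reads assigned to a miRNA was 73.3% to 74.2% for TUBO cells, 67.8% to 74.1% for MM3MG, 55.3% to 58.3% for exosomes, 47.5% to 52.0% for MM3MG-Her2 and 27.2% to 32.0% for supernatant. Inserts of 20 bases or fewer reached 33.8% of reads in supernatant and at most 18.3% in the other groups. The 7 epithelial marker miRNAs, led by the miR-200 family, summed to 2.53% to 2.66% of miRNA reads in TUBO cells. In MM3MG they summed to 0.00213% to 0.00327%, against the epithelial label, and in MM3MG-Her2 to 0.00121% to 0.00418% with miR-203-3p and miR-205-5p at 0 reads. The 5 mesenchymal markers (miR-143-3p, miR-145a-5p, miR-199a-3p, miR-199a-5p and miR-214-3p) ran the other way, with means of 17.5% in MM3MG, 9.74% in MM3MG-Her2 and 4.84% in TUBO cells. In TUBO cells nearly all of this was miR-143-3p, with 23371, 18694 and 25131 reads. There miR-145a-5p had 97, 64 and 78 reads and miR-199a-3p, counted with miR-199b-3p, had 13, 69 and 20. miR-199a-5p had 0, 3 and 0 reads in TUBO cells, and miR-214-3p had 0.

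Levels are given as CPM, reads scaled to a common total of miRNA reads, since 1 insert is 1 read whatever its length. In bulk libraries, fewer cells of a type and less RNA per cell cannot be told apart. miR-221-3p had 5228, 5771 and 5932 CPM in the MM3MG libraries and 4815, 5267 and 4715 CPM in MM3MG-Her2. It had 1765, 1741 and 1483 CPM in TUBO cells, 1971, 2150.2 and 2597 CPM in exosomes, and 1866, 3018 and 1142 CPM in supernatant. The 6 libraries of the MM3MG lines were above all 9 TUBO-derived libraries.

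In order of mean level, miR-221-3p was at 5644 ± 369 CPM (SD, n = 3, as for all values with an SD here) in MM3MG and 4932 ± 294 in MM3MG-Her2, and these 2 groups overlapped. Exosomes followed at 2239 ± 322, supernatant at 2009 ± 946 and TUBO cells at 1663 ± 156 CPM. Supernatant overlapped both of its neighbours in this order, while exosomes and TUBO cells did not overlap. Among all arms its rank by mean CPM ran from 29 in MM3MG to 58 in TUBO cells.

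miR-222-3p had 5158, 5486 and 6935 CPM in MM3MG and 10189, 11579.8 and 8337 CPM in MM3MG-Her2. It had 2942, 2939 and 2801 CPM in TUBO cells, 605, 566 and 968 CPM in exosomes, and 864, 794 and 1223 CPM in supernatant. MM3MG-Her2 was highest in every library, and only supernatant and exosomes overlapped. The group means fell in the order MM3MG-Her2 at 10035 ± 1627 CPM, MM3MG at 5859.7 ± 946, TUBO cells at 2894 ± 80.2, supernatant at 961 ± 230.1 and exosomes at 713 ± 221.7 CPM. By rank among all arms it stood at 19 in MM3MG-Her2 and at 77 in exosomes. Both guides together took 1.50% ± 0.19 of the miRNA reads of MM3MG-Her2 and 1.15% ± 0.126 of those of MM3MG. TUBO cells gave them 0.456% ± 0.0237, supernatant 0.297% ± 0.0752 and exosomes 0.295% ± 0.0535.

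**Figure D1:**
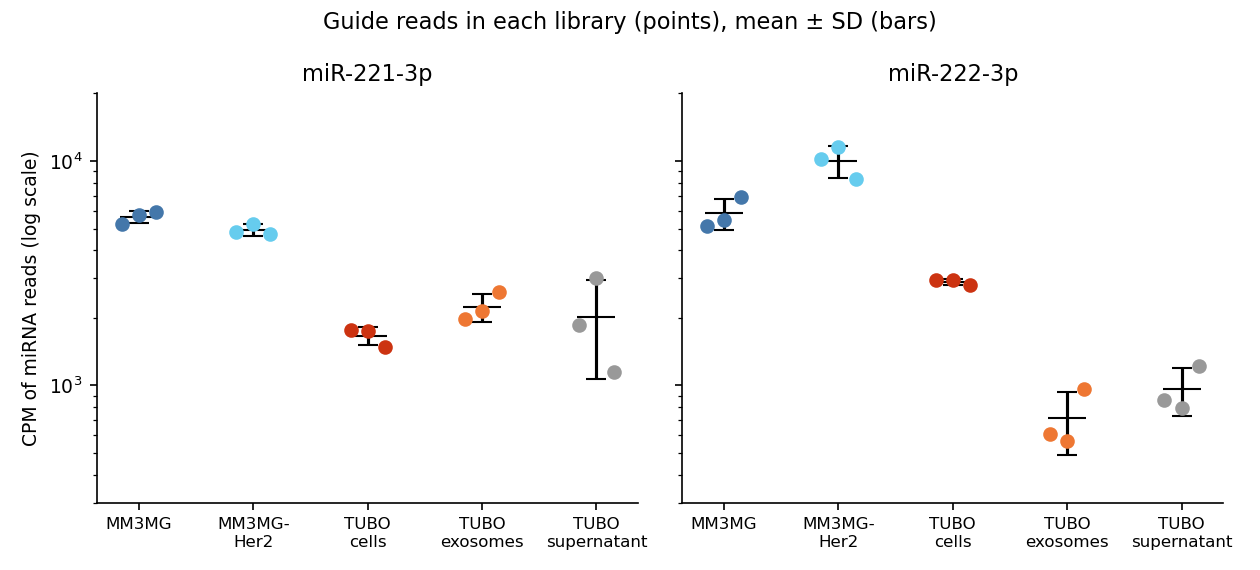
CPM of miRNA reads on a log axis for miR-221-3p (left) and miR-222-3p (right), with 1 point per library and bars for the mean ± SD of 3 libraries. miR-222-3p was highest in MM3MG-Her2 (10035 CPM) and lowest in exosomes (713 CPM), while miR-221-3p was lowest in TUBO cells (1663 CPM).

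The reads of the guides can be set against each other within a library, where no scaling enters. The ratio of miR-222-3p to miR-221-3p reads was 0.987, 0.951 and 1.17 in MM3MG. It was 2.12, 2.20 and 1.77 in MM3MG-Her2 and 1.67, 1.69 and 1.89 in TUBO cells. In exosomes it was 0.307, 0.263 and 0.373, and in supernatant 0.463, 0.263 and 1.07. So miR-222-3p led in the Neu-carrying cells, the guides were about level in MM3MG, and miR-221-3p led in all 3 exosome libraries and in 2 of 3 supernatant libraries. How well each sequence is captured by ligation and PCR was not measured, so a ratio compares reads, and its differences between groups are the measurement.

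On the log2 scale the ratio was 0.97 higher in MM3MG-Her2 than in MM3MG (1.01 ± 0.17 against 0.04 ± 0.16) and 0.76 higher in TUBO cells (0.80 ± 0.10) than in MM3MG. Each of these had an exact two-sided permutation p of 0.1, the smallest that 3 libraries against 3 allow, and an adjusted p of 0.15 over the 6 comparisons, so neither could pass 0.05. Between exosomes (-1.68 ± 0.25) and TUBO cells the difference was -2.49, a 5.61-fold lower ratio (exact permutation p = 0.1, adjusted p = 0.15). Between supernatant (-0.98 ± 1.02) and TUBO cells it was -1.78, with the same exact permutation p of 0.1. In these 4 comparisons no library of one group lay within the range of the other. TUBO cells and MM3MG-Her2 overlapped (difference -0.21, exact permutation p = 0.2), as did exosomes and supernatant (-0.70, exact permutation p = 0.4).

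The share of miR-222-3p among the guide reads varied between the supernatant libraries. miR-222-3p made up 31.7% of the guide reads in replicate 1 (63 of 199 reads, exact Clopper-Pearson 95% interval 25.3% to 38.6%), 20.8% in replicate 2 (45 of 216, 15.6% to 26.9%) and 51.7% in replicate 3 (91 of 176, 44.1% to 59.3%). The interval of replicate 3 did not reach those of the other 2. These intervals take each read as a separate molecule. PCR copies of 1 molecule were not told apart, so the counting error may be wider, and a difference beyond it was not tested. In exosomes the same share was 20.8% to 27.2%.

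**Figure D2:**
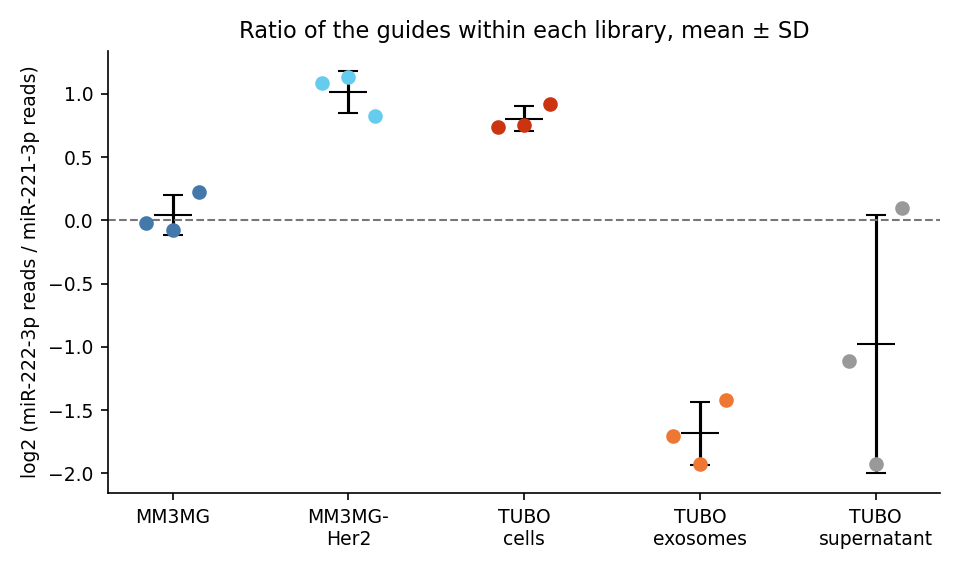
Log2 ratio of miR-222-3p to miR-221-3p reads in each library (points), with the mean ± SD of 3 libraries per group, and a dashed line where both guides have equal reads. MM3MG-Her2 and TUBO cells lie above the line, exosomes at -1.93 to -1.42 below it, and supernatant is spread from -1.93 to 0.10.

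After Neu transduction the 2 guides moved in opposite directions, though neither call held under every setting tried. miR-222-3p rose from 5859.7 to 10035 CPM, a log2 fold change of 0.69 ± 0.14 (SE, n = 3 per group, as for all fold changes here; edgeR adjusted p = 6.2e-05). miR-221-3p fell from 5644 to 4932 CPM, a log2 fold change of -0.29 ± 0.13 that was just past the threshold of 0.05 (edgeR adjusted p = 0.048). Of 259 arms tested, 59.8% passed, 26.3% higher and 33.6% lower, so a call by itself was common. The share of higher calls among all calls, 43.9%, was 53.9% with upper-quartile scaling and 25.3% with all reads as library size. Without MM3MG-Her2 replicate 1 or 3, the higher calls were 36 of 281 or 34 of 278 arms tested in place of 68 of 259, and the median arm moved from -0.06 to -0.62 in both cases. Relative to the median arm (log2 fold change -0.06), miR-221-3p stood at -0.23 and miR-222-3p at 0.74, and over 5 scalings these ranged from -0.24 to -0.14 and from 0.73 to 0.82.

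The call for miR-221-3p was lost under several settings, among them upper-quartile scaling (-0.06, edgeR adjusted p = 0.73) and inserts of 20 to 24 bases (-0.18, adjusted p = 0.16), and its size was -0.80 without MM3MG-Her2 replicate 3 and -0.74 without replicate 1. The rise of miR-222-3p did not pass without MM3MG-Her2 replicate 1 (0.21, edgeR adjusted p = 0.23), without replicate 3 (0.26, adjusted p = 0.11) or with all reads as library size (0.24, adjusted p = 0.17). miRNA reads were a smaller share of the library in MM3MG-Her2 than in MM3MG (47.5% to 52.0% against 67.8% to 74.1%), and the part of this in the fold changes was not tested.

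Both guides were lower in TUBO cells than in either MM3MG line. Against MM3MG, miR-221-3p fell to 1663 CPM by 2.14 ± 0.13 on the log2 scale (edgeR adjusted p = 3.2e-15), and miR-222-3p fell to 2894 CPM by 1.40 ± 0.14 (adjusted p = 1.8e-10). In this comparison 83.0% of 259 arms passed the threshold, 30.1% higher and 52.9% lower. Of all calls 36.3% were higher, against 45.0% with RLE scaling, 45.7% with all reads as library size, and 51.7% or 50.5% without MM3MG replicate 2 or 3, where the median arm moved from -0.53 to 0.21 or 0.10. Relative to the median arm at -0.53 over all libraries, miR-221-3p stood at -1.62 and miR-222-3p at -0.87. Both stayed called in every alternative run. The log2 fold change of miR-222-3p itself, -1.40 over all libraries, was -0.77 without MM3MG replicate 2 and -0.64 without MM3MG replicate 3.

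Against MM3MG-Her2, which also carries Neu, TUBO cells had miR-221-3p lower by -1.85 ± 0.13 (edgeR adjusted p = 1.2e-13) and miR-222-3p lower by -2.08 ± 0.14 (adjusted p = 5.1e-14). Among 259 arms, 81.1% passed, 25.9% higher and 55.2% lower. Of all calls 31.9% were higher, against 43.9% with RLE scaling, 43.2% with DESeq2, 57.2% with all reads as library size, and 45.3% or 49.2% without MM3MG-Her2 replicate 1 or 3. Relative to the median arm at -0.73, the guides stood at -1.13 and -1.36, and over 5 scalings at -1.19 to -1.13 and -1.42 to -1.36. Over those scalings the log2 fold changes themselves ran from -1.85 to -0.995 for miR-221-3p and from -2.08 to -1.22 for miR-222-3p, with every one called. Without MM3MG-Her2 replicate 3 the log2 fold change of miR-221-3p was -1.18. The epithelial and mesenchymal marker sums given above also separate TUBO cells from both MM3MG lines, and their part in the guide levels was not tested.

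Between exosomes and TUBO cells, miR-222-3p fell from 2894 to 713 CPM, by 1.87 ± 0.25 on the log2 scale (edgeR adjusted p = 3.3e-06). miR-221-3p had 2239 CPM in exosomes and 1663 in cells, a log2 fold change of 0.58 ± 0.26 that did not pass (edgeR adjusted p = 0.077), although every exosome library was above every cell library. Of 220 arms tested, 36.8% passed, 20.9% higher and 15.9% lower. Of those calls 56.8% were higher, against 45.7% with RLE scaling, 43.6% with DESeq2, 73.4% with upper-quartile scaling and 25.6% with all reads as library size. Relative to the median arm at -0.02, miR-222-3p stood at -1.85 (-1.86 to -1.83 over 5 scalings) and miR-221-3p at 0.60 (0.59 to 0.61). miR-221-3p passed in 4 alternatives, for example with only exosomes and cells in the fit (0.59, edgeR adjusted p = 0.0067) and with upper-quartile scaling (0.78, adjusted p = 0.015). Its log2 fold change, not set against the median arm, was 0.06 with all reads as library size.

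Supernatant resembled exosomes in where the guides stood against the cells. miR-222-3p was lower in supernatant than in TUBO cells by -1.38 ± 0.25 (edgeR adjusted p = 6.2e-05), and miR-221-3p differed by 0.44 ± 0.26 (adjusted p = 0.13). Here 72.3% of 220 arms passed, 33.2% higher and 39.1% lower. Of these calls 45.9% were higher, and 18.5% with all reads as library size. miR-221-3p was called higher without supernatant replicate 3 (0.72, edgeR adjusted p = 0.0048) and lower with all reads as library size (-1.06, adjusted p = 0.0038), so its direction depends on the scaling. Relative to the median arm at -0.33 it stood at 0.77, and over 5 scalings at 0.75 to 0.84.

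Exosomes and supernatant did not differ past the threshold for either guide, with log2 fold changes of 0.14 ± 0.26 for miR-221-3p (edgeR adjusted p = 0.64) and -0.49 ± 0.26 for miR-222-3p (adjusted p = 0.099). Of 220 arms 67.3% passed, 39.5% higher and 27.7% lower. Of all calls 58.8% were higher, and 82.5% with all reads as library size. The sign of miR-221-3p changed with the settings, and miR-222-3p passed as lower in exosomes in 5 of the alternatives, such as inserts of 20 to 24 bases (-1.17, edgeR adjusted p = 0.0024) and without exosome replicate 3 (-1.03, adjusted p = 0.0081). It stood at 0.54 (adjusted p = 0.075) with all reads as library size. The 3 comparisons of the TUBO fractions share libraries and are not independent of each other.

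Markers of blood cells were higher in both fractions than in TUBO cells, in supernatant almost only through miR-3107-5p/miR-486-5p. The 5 blood cell markers summed to 0.0129% to 0.0152% of miRNA reads in TUBO cells, where miR-451a, miR-144-3p, miR-142a-3p and miR-223-3p had 0 reads. In exosomes they summed to 1.06%, 1.17% and 2.56% and in supernatant to 0.332%, 0.30% and 0.737%. Most of these reads were miR-3107-5p/miR-486-5p, with 3245, 2472 and 7045 reads in the exosome libraries and 240, 170 and 548 in supernatant, so the high level in replicate 3 of both fractions rests on that 1 marker. That marker was also at 1203 CPM in MM3MG and 756.6 CPM in MM3MG-Her2, where the other 4 had 0 reads. The other 4 markers did not move as 1 in exosomes. There miR-451a (321, 279 and 253 reads) and miR-144-3p (30, 20 and 12 reads) were lowest in replicate 3. miR-223-3p (7, 4 and 12 reads) was highest in replicate 3, and miR-142a-3p had 10, 5 and 6 reads. In supernatant miR-451a had 2, 0 and 0 reads, and miR-144-3p, miR-142a-3p and miR-223-3p had 0 reads. miR-451a, the red cell miRNA, had 1002 CPM in exosomes against 0 reads in TUBO cells, at least 466-fold higher over a floor of 3 reads in the group. The endothelial miR-126a-3p had 14, 18 and 25 reads in exosomes and 0 in every library of TUBO cells and supernatant, and was called higher in exosomes than in either (edgeR adjusted p = 3.3e-06 and 0.0017). The liver miRNA miR-122-5p, at most 0.0141% of miRNA reads in any of these libraries, was called higher than in TUBO cells both in exosomes (log2 fold change 2.62 ± 0.60, edgeR adjusted p = 0.0016) and in supernatant (3.79 ± 0.70, adjusted p = 6.8e-05). These calls rest on few reads, with 4, 1 and 3 in TUBO cells, 11, 9 and 9 in exosomes and 5, 8 and 2 in supernatant. Whether part of the guide reads in the fractions came from the serum of the medium was not tested.

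**Figure D3:**
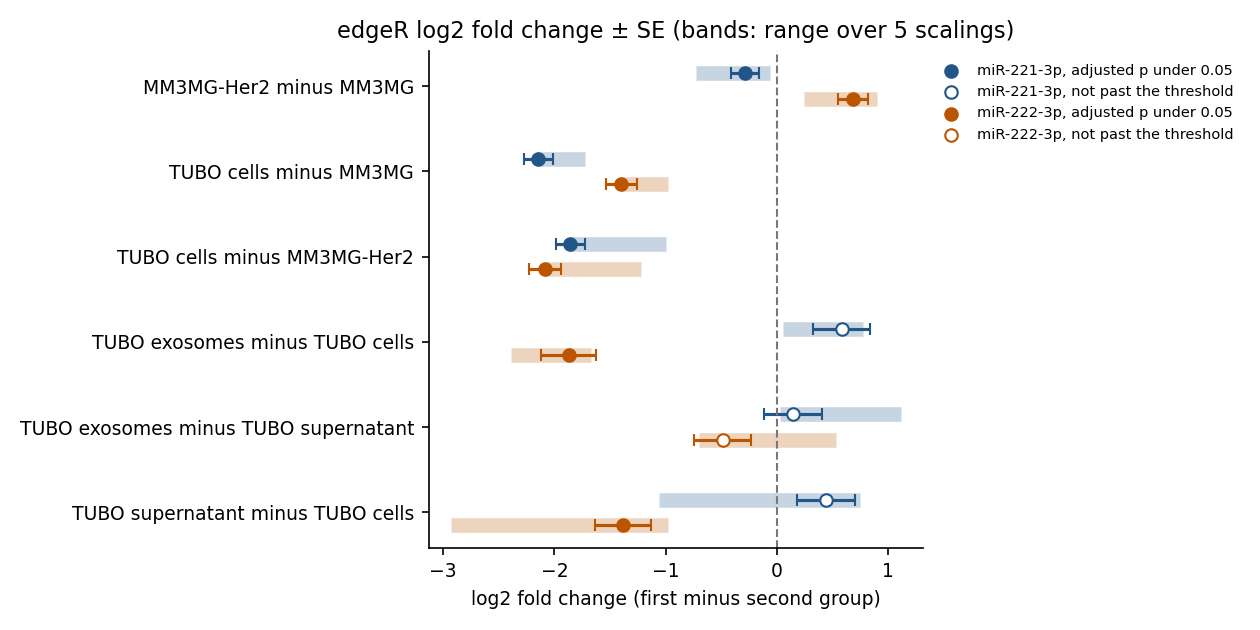
edgeR log2 fold change ± SE of miR-221-3p and miR-222-3p in the 6 comparisons (first minus second group), filled where the adjusted p was under 0.05, with pale bands for the range over 5 scalings. Both guides lie below 0 in the comparisons of TUBO cells with the MM3MG lines, and between exosomes and cells miR-222-3p passed the threshold at -1.87 while miR-221-3p, at 0.58, did not.

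The 3′ ends of the reads differed between the guides. miR-221-3p reads were mostly 22 or 23 bases long, the longer being the RefSeq length, and miR-222-3p reads were mostly 24 bases, 1 base longer than RefSeq. The 3 most frequent inserts of miR-221-3p and the 2 most frequent of miR-222-3p are printed as DNA, as sequenced, since they carry the length differences, with capitals for bases after the match to the hairpin ends.
miR-221-3p, 22 bases: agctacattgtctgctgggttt
miR-221-3p, 23 bases: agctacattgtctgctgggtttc
miR-221-3p, 24 bases: agctacattgtctgctgggtttcT
miR-222-3p, 24 bases: agctacatctggctactgggtctc
miR-222-3p, 25 bases: agctacatctggctactgggtctct
The 24-base form of miR-222-3p matched the hairpin to its end, and the 24-base form of miR-221-3p carried an added T, which is uridine in the RNA.

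In MM3MG the 22-base insert was the leading form of miR-221-3p, at 44.5% ± 3.01 of its reads against 20.7% ± 1.62 for the 23-base insert. In MM3MG-Her2 they were near level (34.4% ± 1.31 and 36.0% ± 1.36), and in TUBO cells (28.4% ± 2.08 and 37.4% ± 1.99) and exosomes (30.2% ± 3.85 and 43.5% ± 2.93) the 23-base insert led. The 23-base insert in MM3MG (19.2% to 22.4%) did not overlap that in MM3MG-Her2 (34.5% to 37.1%). Mean length was 22.75 bases in TUBO cells, 22.67 in MM3MG-Her2, 22.62 in exosomes, 22.49 in MM3MG and 22.26 in supernatant. In 5 of the 6 comparisons the libraries did not overlap in mean length (exact permutation p = 0.1 each, adjusted p = 0.13 over 12 tests). TUBO cells and MM3MG-Her2 differed by 0.078 bases (exact permutation p = 0.2).

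Reads of miR-221-3p with only added uridines after the match made up 17.3% to 19.7% in TUBO cells, 13.6% to 14.3% in MM3MG, 10.1% to 10.6% in MM3MG-Her2 and 8.06% to 12.0% in exosomes. TUBO cells were above all exosome libraries, and supernatant, on 85 to 171 reads per library, ran from 12.3% to 22.1%. Over reads that matched the hairpin to their end, the mean length in exosomes was 0.012 bases above that in cells (exact permutation p = 0.7), whereas over all reads the difference was -0.124 bases. On miR-222-3p, reads scored with only added uridines made up 0.43% to 1.78% in the 9 cell libraries. The hairpin base after its 24-base form is itself a U, so a uridine added there counts as a match. The shares of the 2 guides therefore cannot be compared.

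The 24-base insert of miR-222-3p held 83.8% ± 5.17 of its reads in supernatant, 70.8% ± 0.787 in MM3MG-Her2, 69.0% ± 1.34 in TUBO cells, 67.1% ± 1.23 in MM3MG and 63.0% ± 2.60 in exosomes. The 25-base insert, also a full match, held 2.01% ± 2.25, 12.3% ± 0.822, 15.7% ± 1.24, 10.5% ± 1.52 and 20.2% ± 3.30 in the same order. Its sequence is also that of the 24-base insert with an added uridine, and the 2 origins cannot be told apart. Exosomes were above and supernatant below all cell libraries for the 25-base form, the latter on 45 to 91 reads per library. Mean length was 24.12 bases in exosomes and 23.96 in supernatant (exact permutation p = 0.1, adjusted p = 0.13 over 12 tests), and 24.14 in TUBO cells. Uncalled bases occurred in 3.15% of miR-221-3p and 5.41% of miR-222-3p reads, at base 23 in 99.3% and 99.4% of those reads. They were taken as matching where reads were sorted by their match to the hairpin. In the shares of single inserts, reads with an uncalled base counted only in the total. The shares of inserts of 23 bases or more may therefore be somewhat low, while that of the 22-base insert is hardly touched. This bears on the 2 forms of miR-221-3p called near level in MM3MG-Her2. By length alone, with every sequence and uncalled base included, its reads there were 35.6% of 22 bases and 44.3% of 23 bases.

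**Figure D4:**
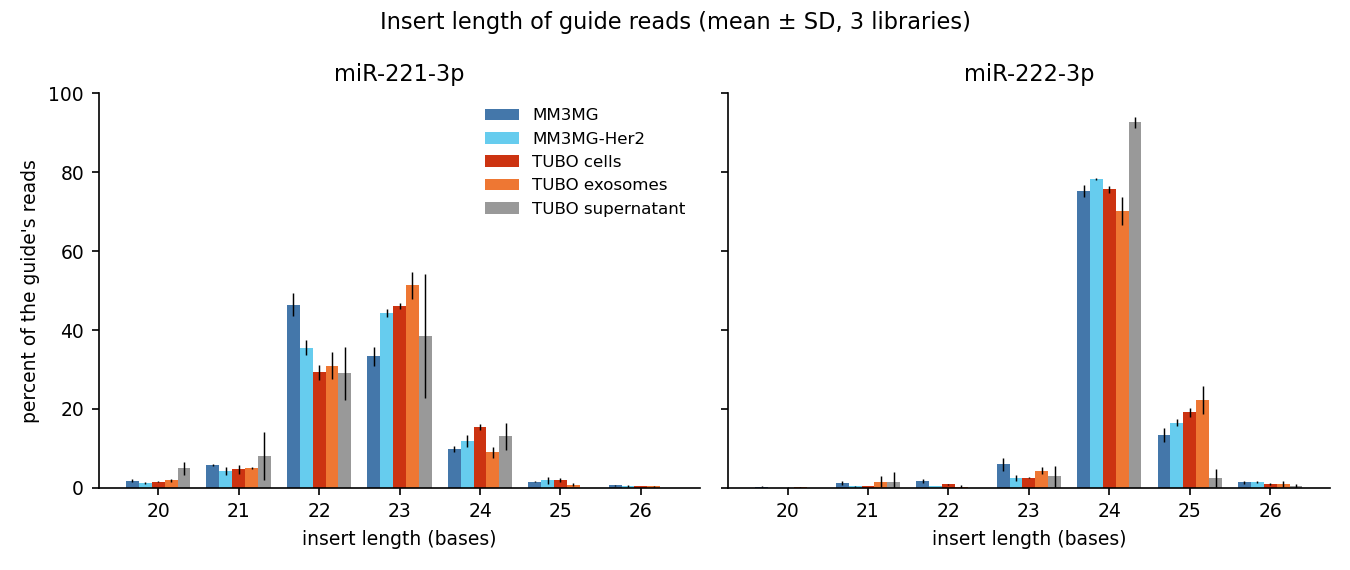
Percent of each guide's reads by insert length in bases, with bars for the mean of 3 libraries per group and lines for the SD. miR-221-3p peaks at 22 bases in MM3MG and at 23 bases in MM3MG-Her2, TUBO cells and exosomes, and miR-222-3p peaks at 24 bases in every group.

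The passenger arms miR-221-5p and miR-222-5p come from the same hairpins as the guides. miR-221-5p had 20, 52 and 26 reads in MM3MG, 50, 44 and 32 in MM3MG-Her2 and 6, 4 and 11 in TUBO cells. In exosomes it had 1, 2 and 0 reads, and in supernatant 0 in every library, which allows up to 14.7 CPM. Of the reads of both arms of Mir221 it made up 1.5% ± 0.329 in MM3MG, 3.89% ± 0.622 in MM3MG-Her2 and 0.896% ± 0.443 in TUBO cells, and MM3MG-Her2 did not overlap the other 2. Pooled over exosomes it was 3 of 1926 reads (0.156%, exact Clopper-Pearson 95% interval 0.0321% to 0.455%).

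Between MM3MG-Her2 and MM3MG, miR-221-5p rose by 1.07 ± 0.25 on the log2 scale (edgeR adjusted p = 4.1e-04) while its guide fell. With inserts of 20 to 24 bases it stood at -0.10 (edgeR adjusted p = 0.84), and the RefSeq miR-221-5p is 26 bases long. In TUBO cells it fell by 2.92 ± 0.33 against MM3MG (edgeR adjusted p = 3.6e-09), and against MM3MG-Her2 it was lower by -3.99 ± 0.31 (adjusted p = 1.9e-12). miR-222-5p had 9, 20 and 7 reads in MM3MG, 16, 14 and 5 in MM3MG-Her2 and 4, 5 and 8 in TUBO cells. It fell in TUBO cells against MM3MG (-1.79 ± 0.46, edgeR adjusted p = 8.5e-04) and against MM3MG-Her2 (-2.43 ± 0.47, adjusted p = 2.8e-05), and did not pass between MM3MG-Her2 and MM3MG (0.64 ± 0.41, adjusted p = 0.18). Its share of the reads of Mir222 was 0.560% ± 0.239 in MM3MG, 0.517% ± 0.178 in MM3MG-Her2 and 0.420% ± 0.134 in TUBO cells, with overlapping libraries. In exosomes and supernatant it had 0 to 2 reads per library, and neither passenger arm was tested there.

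Over the 15 libraries, the 2 guides of the cluster were not each other's nearest match. Pearson's r of log2(CPM + 1) between them was 0.69, and among the 224 other arms of at least 100 CPM in some group miR-222-3p ranked 57 in likeness to miR-221-3p, and miR-221-3p ranked 54 in likeness to miR-222-3p. Over the 9 cell libraries alone r was 0.84. The arms most like miR-221-3p were miR-598-3p (r = 0.94), miR-199a-3p/miR-199b-3p (0.93) and miR-10a-5p (0.93), all low in TUBO cells, exosomes and supernatant. Those most like miR-222-3p were miR-615-3p (0.95), miR-99a-3p (0.93) and miR-21a-3p (0.92), all with their highest mean in MM3MG-Her2. For miR-615-3p that mean was 125 CPM against 110.5 CPM in MM3MG, and the difference was not called (log2 fold change 0.10 ± 0.25, edgeR adjusted p = 0.76). It had 0 reads in exosomes and supernatant, where miR-222-3p was at 713 and 961 CPM. Likewise miR-598-3p had 0 reads in TUBO cells and exosomes, where miR-221-3p was at 1663 and 2239 CPM. A high r here therefore does not mean a like level. These correlations describe libraries that fall into 5 groups and share their depth and scaling, and carry no test.

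Other miRNAs have been reported to repress targets of these guides. Of 8 reported for Esr1 (miR-18a-5p, miR-18b-5p, miR-19a-3p, miR-19b-3p, miR-20b-5p, miR-22-3p, miR-193b-3p and miR-206-3p), 6 could be tested in the cell lines. Between MM3MG-Her2 and MM3MG, 2 rose and 1 fell, where 59.8% of all arms were called, with a median log2 fold change of 0.56 against -0.06 over all arms. miR-18a-5p, of the miR-17-92 cluster, rose by 1.99 ± 0.25 (edgeR adjusted p = 7.5e-08), and miR-22-3p fell by 1.15 ± 0.11 (adjusted p = 2.8e-10). In TUBO cells 1 rose and 4 fell against MM3MG, where 83.0% of all arms were called and 52.9% were lower (median -1.75, against -0.53 over all arms). Against MM3MG-Her2 6 of 6 fell, where 81.1% of all arms were called and 55.2% were lower (median -1.70, against -0.73). The largest fall in both was that of miR-206-3p, a muscle miRNA with 0 reads in TUBO cells, which was at least 66.3-fold lower than in MM3MG and at least 124-fold lower than in MM3MG-Her2. miR-18a-5p was the 1 that rose against MM3MG (0.69 ± 0.26, edgeR adjusted p = 0.015).

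Of the same list, 4 could be tested in the TUBO fractions. In exosomes against cells, 2 fell and none rose, where 36.8% of all arms were called (median 0.03, against -0.02 over all arms), with miR-18a-5p at -0.87 ± 0.33 (edgeR adjusted p = 0.049), a call lost without exosome replicates 1 or 2 or any 1 TUBO cell library. In exosomes against supernatant 3 rose, where 67.3% of all arms were called (median 2.95, or 2.55 with the arm at 0 reads set to its bound, against 0.49 over all arms), led by miR-19a-3p (3.11 ± 0.73, edgeR adjusted p = 0.0053). All 4 fell in supernatant against cells (72.3% of all arms called, 39.1% lower; median -2.20, against -0.33 over all arms), where miR-18a-5p had 0 reads and was at least 10.2-fold lower.

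The 6 miRNAs reported to repress Cdkn1b were miR-24-3p, miR-148a-3p, miR-148b-3p, miR-152-3p, miR-181a-5p and miR-196a-5p. In MM3MG-Her2 against MM3MG, 1 rose and 5 fell, where 59.8% of all arms were called (median -0.81, against -0.06 over all arms), with miR-152-3p at -1.34 ± 0.14 (edgeR adjusted p = 2.3e-09). The rise of miR-196a-5p, a miRNA of the Hox clusters, was 0.53 ± 0.14 (edgeR adjusted p = 0.0013) and did not pass without MM3MG-Her2 replicates 1 (0.04) or 3 (0.02) or with all reads as library size (0.08). In TUBO cells 1 rose and 4 fell against MM3MG (median -0.46, against -0.53 over all arms), and 3 rose and 2 fell against MM3MG-Her2 (median 0.48, against -0.73). With 83.0% and 81.1% of all arms called in these comparisons, 5 of 6 is near the background share in both. miR-24-3p was the highest rise in both, at 0.44 ± 0.12 (edgeR adjusted p = 0.0019) and 1.34 ± 0.13 (adjusted p = 1.1e-10), and miR-196a-5p the largest fall, from 2734 CPM in MM3MG and 4220 CPM in MM3MG-Her2 to 8.52 CPM.

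In the TUBO fractions 5 of these 6 were tested. In exosomes against cells 1 rose and 1 fell, where 36.8% of all arms were called (median 0.24, against -0.02). There miR-152-3p rose by 1.05 ± 0.23 (edgeR adjusted p = 9.6e-04) and miR-24-3p fell by 1.12 ± 0.20 (adjusted p = 1.2e-04). In exosomes against supernatant 3 rose and 1 fell, where 67.3% of all arms were called (median 1.22, against 0.49), led by miR-181a-5p at 2.25 ± 0.24 (edgeR adjusted p = 5.0e-08) and by miR-24-3p at -1.29 ± 0.20 (adjusted p = 1.0e-05). In supernatant against cells 2 fell, where 72.3% of all arms were called (median -0.18, against -0.33), miR-148b-3p by 2.43 ± 0.29 (edgeR adjusted p = 2.6e-07).

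Of 7 miRNAs reported as promoters of the epithelial to mesenchymal transition or of invasion in breast cells (miR-9-5p, miR-10b-5p, miR-21a-5p, miR-29a-3p, miR-103-3p, miR-107-3p and miR-155-5p), miR-103-3p and miR-107-3p share their first bases and were counted as 1, which left 6. In MM3MG-Her2 against MM3MG 2 rose and 4 fell, where 59.8% of all arms were called (median -0.92, against -0.06 over all arms), among them miR-155-5p at 2.38 ± 0.29 (edgeR adjusted p = 2.6e-08) and miR-10b-5p at -6.15 ± 0.39 (adjusted p = 1.9e-06). In TUBO cells 1 rose and 3 fell against MM3MG, where 83.0% of all arms were called (median -1.17, against -0.53), and 2 rose and 4 fell against MM3MG-Her2, where 81.1% were called (median -1.87, against -0.73). miR-9-5p was the highest rise in both (7.13 ± 0.15 and 8.90 ± 0.17, edgeR adjusted p = 1.5e-26 and 2.4e-27), and miR-10b-5p the largest fall (-9.65 ± 0.47 and -3.50 ± 0.61). In exosomes against cells 1 rose and 1 fell, where 36.8% of all arms were called (median 0.17, against -0.02). There miR-10b-5p rose by 5.66 ± 0.52 (edgeR adjusted p = 6.5e-08) and miR-29a-3p fell by 0.89 ± 0.22 (adjusted p = 0.0028). The rise of miR-10b-5p starts from few reads, with 3, 12 and 3 in TUBO cells against 125, 115 and 295 in exosomes, and its source was not tested. miR-9-5p was 3.56 ± 0.34 higher in exosomes than in supernatant (edgeR adjusted p = 1.6e-07), where 4 of 6 were higher and none lower, with 67.3% of all arms called (median 2.48, against 0.49). In supernatant against cells 1 rose and 4 fell, where 72.3% of all arms were called (median -1.52, against -0.33).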

How the data were processed

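TRIzol was used to extract total RNA, adapters were ligated to both ends, and PCR products of miRNA size were taken from a gel, per the labels' protocols. The authors deposited counts: whole numbers of reads per distinct trimmed insert sequence, with uncalled bases kept. The trimming tool was not given in the sources used here, and molecular identifiers are not named. Whether replicates are separate cultures is not given either, so p-values measure the spread between these libraries, which may be technical.

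Inserts of 18 to 26 bases were assigned to 1720 arm features when their first 18 bases matched exactly (RefSeq mature arms, GRCm38.p6, plus 60 arms from hairpins, such as miR-222-5p). Arms identical over these bases were merged. In all, 4186718 of 6892924 reads were assigned. Counts were tested in R 4.3.3 with edgeR 4.0.16 (TMM, filterByExpr, robust quasi-likelihood, Benjamini-Hochberg over all arms, threshold 0.05). One fit held the 9 cell libraries and another the 9 TUBO-derived libraries. Fits were tested on simulated data. Alternatives included DESeq2 1.42.0, other scalings, no filter, other insert lengths, shifted starts and leaving out libraries; inserts of 18 to 31 bases were added after seeing the data. Ratios and lengths were compared by exact two-sided permutation tests. Likeness used arms with at least 100 CPM in a group. Named arms were the guides, their passenger arms, the 3 most alike arms per guide, and, of arms called in a comparison and reaching 100 CPM in one of its groups, each list's highest rise and largest fall. The members and lists were chosen with earlier results of these data known.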

Additional observations from a re-analysis of the deposited data

Results flagged for a closer look

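Inserts longer than 26 bases that begin with a guide's first 18 bases lay outside the reads counted above. For miR-222-3p there were 118 such reads in MM3MG (1.82% of its reads of any length), 124 in MM3MG-Her2 (1.87%), 52 in TUBO cells (1.27%) and 8 in exosomes (1.28%), each above the 3 reads that a count of 0 allows, against 1 in supernatant. For miR-221-3p there were 19 in MM3MG (0.306%), 7 in MM3MG-Her2 (0.222%) and 7 in TUBO cells (0.303%), with 1 in exosomes and 0 in supernatant. What these reads are was not tested. Groups of 3 libraries were not searched for outlying samples.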

How the results depend on the processing

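The falls of both guides in TUBO cells against either MM3MG line, and of miR-222-3p in exosomes and in supernatant against TUBO cells, kept their direction and passed the threshold under every alternative run. Log2 fold changes that crossed the threshold or changed sign were as follows, and the causes were not tested beyond what each setting changes. For miR-221-3p in MM3MG-Her2 minus MM3MG, the call was lost with upper-quartile scaling (-0.057), no filter on low counts (-0.30), starts shifted by up to 2 bases (-0.27) and inserts of 20 to 24 bases (-0.18), and values without 1 library ran from -0.80 to -0.16. For miR-222-3p there, it was lost with all reads as library size (0.24), and values without 1 library ran from 0.21 to 0.87. miR-221-3p in exosomes minus cells gained a call with upper-quartile scaling (0.78), shifted starts (0.65) and only those 2 groups (0.59). In supernatant minus cells it was called with upper-quartile scaling (0.75), only those 2 groups (0.59) and, as lower, with all reads as library size (-1.06), and ran from 0.18 to 0.72 without 1 library. In exosomes minus supernatant it was called with all reads as library size (1.11), changed sign with inserts of 20 to 24 bases (-0.062), 18 to 31 bases (-0.13) and only those 2 groups (-0.14), and ran from -0.16 to 0.50 without 1 library. miR-222-3p there was called with 20 to 24 bases (-1.17), 18 to 31 bases (-0.82) and only those 2 groups (-0.85), changed sign with all reads as library size (0.54), and ran from -1.03 to -0.21 without 1 library. With all reads as library size 125 arms were called between exosomes and cells, against 81. The passenger arm miR-221-5p in MM3MG-Her2 minus MM3MG stood at -0.10 with 20 to 24 bases, and miR-222-5p at -0.087 to 1.07 without 1 library. Ratios of the guides kept their direction in every alternative. Of the mean lengths, 3 differences changed sign: miR-221-3p in exosomes minus cells over full matches to the hairpin (0.012 bases), and miR-222-3p in TUBO cells minus MM3MG-Her2 with 20 to 24 bases (-0.0144) and 18 to 31 bases (-0.0122) and in exosomes minus supernatant with 20 to 24 bases (-0.0567). Counting uncalled bases as matching within the first 18 changed no guide count. 

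With the replicate number as a replicate block, miR-221-3p stood at -0.29 (edgeR adjusted p = 0.0503) in MM3MG-Her2 minus MM3MG and at 0.60 (adjusted p = 0.046) in exosomes minus cells, and the block changed no other call of the guides and no count of called arms by over 1.5 times. For exosomes and supernatant, libraries of the same number correlated at 0.014, 0.33 and 0.364 in their deviations from the group means, against a mean of -0.109 for different numbers, and 4 of 6 libraries correlated best with their own number. Whether the fractions of 1 number come from 1 culture is not given in the labels, and pairing was not taken as shown since 1 of the 3 correlations was near 0. In the other comparisons the same-number correlations were -0.151 to 0.088. In supernatant 85 to 171 reads of miR-221-3p and 45 to 91 of miR-222-3p per library limit the precision.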
